A study of Mus musculus with 20 samples.

Results

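The homeobox genes of the 4 Hox clusters were followed in mouse embryo fibroblasts with or without a conditional allele of Ubf, the gene of the nucleolar RNA polymerase I factor UBF. The members were the genes whose single symbol begins with Hoxa, Hoxb, Hoxc or Hoxd and a number. They were 38 of 19938 genes with a single symbol on the array, 37 of them protein-coding and 1 the antisense transcript Hoxd3os1, and all 38 passed the filter on low signal that 15272 genes passed. Hoxb8 was measured only by a probe set that it shares with Hoxb7 and did not enter the counts.

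Primary fibroblasts (MEFs) came from E14.5 embryos, and immortalized fibroblasts (iMEFs) were MEFs transfected with the SV40 Tt antigens. Each cell type was represented by 1 line homozygous for the floxed allele (Ubffl/fl) and 1 isogenic line with the unmodified gene (Ubfwt/wt). All 4 lines were homozygous for ER-Cre, a recombinase switched on by 4-hydroxytamoxifen (4-HT), and all were given 50 nM 4-HT for 4 h, the Ubfwt/wt lines included. RNA was taken at 0, 24, 48, 72 and 96 h, and each line and time was read on 1 array, 20 arrays in all. Each line was therefore 1 cell population followed over 5 times. The errors below are the scatter between times and not between embryos or lines, and genotype and line cannot be told apart. Whether the iMEFs were derived from the primary cells on the arrays is not stated in the sources used here.

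Hox genes encode transcription factors that give cells their address along the head-to-tail axis and along the limbs. Within a cluster they lie in the order in which they are expressed, so that genes with low paralog numbers mark anterior and those with high numbers posterior or distal positions. Fibroblasts keep much of the Hox pattern of the site they came from when they are grown in culture, and Polycomb and Trithorax complexes maintain it. The mouse clusters lie on chromosomes 6 (HoxA), 11 (HoxB), 15 (HoxC) and 2 (HoxD). Paralogs 1-3 are called anterior here, 4-8 central and 9-13 posterior.

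Signals are the authors' log2 RMA values, in which a difference of 1 is a doubling, and a gene is compared only with itself between arrays. On all 20 arrays 28 of the 38 members exceeded the array's 40th percentile, and the others did so on between 7 and 19 arrays. The fibroblast and macrophage markers stood lower in the iMEFs. The mean of the 15 markers was 9.61 to 10.34 on the iMEF arrays against 11.74 to 12.05 on the MEF arrays, and Lum lay under the 40th percentile on every iMEF array. The mean of the 10 macrophage markers was 6.09 to 6.50 on the iMEF arrays and 8.43 to 9.76 on the MEF arrays, with Adgre1, Lyz2, Ptprc and Mrc1 under the 40th percentile on every iMEF array. The Ubf probe set, named Ubtf in the annotation, did not set the floxed lines apart. At 96 h it stood at 10.01 in Ubffl/fl and 9.49 in Ubfwt/wt iMEFs, and at 10.65 and 10.22 in the MEFs. The floxed part lies between introns 2 and 5, and which of the probes fall in it is not known here, so this value does not check the deletion.

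The 2 iMEF lines carried different Hox patterns. Over the 5 times, 19 of the 38 members differed between Ubffl/fl and Ubfwt/wt iMEFs, 14 of them lower and 5 higher in Ubffl/fl, where 6.25% of all 15272 genes differed (2.59% higher and 3.66% lower). The 5 HoxC genes from Hoxc5 to Hoxc10 and 6 of 9 HoxB genes were lower, as was Hoxc4, which lay under the 40th percentile on all 5 Ubffl/fl iMEF arrays. The higher genes were Hoxa10, Hoxa13, Hoxc12, Hoxc13 and Hoxd8. Differences are on the log2 scale, with ± SE, from limma, with line means and a time term shared by both genotypes of a cell type, and adjusted p is Benjamini-Hochberg over all genes tested. Of the 19 members, 9 had 5 Ubffl/fl arrays that did not overlap the 5 Ubfwt/wt arrays, all of them lower (4.98% of all genes did not overlap, 3.17% lower). Hoxb9, Hoxc6, Hoxc9 and Hoxc10 differed by 1 or more in log2, 4 of 38 where 0.904% of all genes did. The sign of the difference was the same at all 5 times, which also made up the mean, for each of the 19 members.

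Hoxb9, a posterior HoxB gene that helps to pattern the rib-bearing trunk, differed most. It stood at 8.66, 8.39, 8.04, 8.13 and 7.77 from 0 to 96 h in the Ubffl/fl iMEFs and at 10.27, 10.00, 10.25, 10.44 and 9.96 in the Ubfwt/wt iMEFs. The groups did not overlap, and the difference of -1.99 ± 0.12 (SE, adjusted p = 8.72e-07) was a level 3.97-fold lower. Hoxb9 in the primary MEFs stood at 9.66, 9.43, 9.42, 9.36 and 9.54 in Ubffl/fl and 9.69, 9.53, 9.24, 9.09 and 9.16 in Ubfwt/wt, so that the primary lines overlapped and lay between the iMEF lines.

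Hoxc10, a posterior gene of the lumbar region and hindlimb, read 7.41, 7.21, 7.43, 7.24 and 6.84 in the Ubffl/fl iMEFs and 8.81, 8.58, 9.13, 8.88 and 8.59 in the Ubfwt/wt iMEFs. Every Ubffl/fl array lay below every Ubfwt/wt array, with a difference of -1.57 ± 0.11 (SE, adjusted p = 1.86e-06), or 2.97-fold. The MEF values of Hoxc10 were 8.69, 8.71, 8.38, 8.38 and 8.75 in Ubffl/fl and 8.95, 8.71, 8.19, 8.18 and 8.22 in Ubfwt/wt. These overlapped each other and most of the Ubfwt/wt iMEF values.

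Hoxc9, which with its paralogs sets thoracic identity in the spinal cord and vertebrae, read 7.82, 7.82, 8.04, 7.72 and 7.74 in Ubffl/fl iMEFs and 9.02, 8.75, 9.40, 9.40 and 9.08 in Ubfwt/wt iMEFs. The gap of -1.30 ± 0.12 (SE, adjusted p = 3.85e-05) left no overlap and was 2.47-fold. Hoxc9 in the MEFs was 9.55, 9.61, 9.54, 9.46 and 9.86 in Ubffl/fl and 9.69, 9.48, 9.27, 9.20 and 9.16 in Ubfwt/wt, all 10 above the Ubffl/fl iMEF arrays.

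Hoxc6, a central gene of the forelimb and upper thoracic level, read 6.14, 6.27, 6.53, 7.14 and 7.11 in Ubffl/fl iMEFs and 7.99, 7.93, 8.55, 8.34 and 8.04 in Ubfwt/wt iMEFs. It was 2.89-fold lower in Ubffl/fl, -1.53 ± 0.14 (SE, adjusted p = 2.8e-05), again without overlap. The lowest Ubffl/fl values of Hoxc6 were near the floor, over the 40th percentile on only 4 of 5 arrays. Hoxc6 in the MEFs was 9.31, 9.37, 9.66, 9.74 and 9.88 in Ubffl/fl and 9.39, 9.44, 9.37, 9.61 and 9.72 in Ubfwt/wt. Both iMEF lines thus stood below both primary lines, and the Ubffl/fl iMEFs furthest below.

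Hoxc8, a gene of the lower thorax and of brachial motor neurons, read 7.52, 7.30, 7.22, 7.51 and 7.96 in Ubffl/fl iMEFs and 7.90, 8.29, 8.17, 8.46 and 8.27 in Ubfwt/wt iMEFs. The ranges overlapped at 1 array, that of the Ubffl/fl iMEFs at 96 h, and the difference was -0.72 ± 0.11 (SE, adjusted p = 0.00196). Hoxc8 in the MEFs was 10.84, 10.81, 10.95, 11.04 and 10.91 in Ubffl/fl and 10.87, 10.92, 10.78, 11.05 and 11.004 in Ubfwt/wt.

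The other 2 central HoxC genes were also lower. Hoxc5 read 6.36, 6.32, 6.61, 6.66 and 6.53 in Ubffl/fl iMEFs and 7.31, 7.38, 7.17, 6.97 and 6.65 in Ubfwt/wt iMEFs, a difference of -0.60 ± 0.14 (SE, adjusted p = 0.0211). The Ubfwt/wt values of Hoxc5 were lowest at 96 h, where they met the Ubffl/fl range. Its Ubffl/fl iMEF values passed the 40th percentile on all 5 arrays but stood near it, the percentile being 6.19 to 6.42 there. Hoxc4, the most anterior gene of the cluster, passed close to the threshold (adjusted p = 0.0437), but its Ubffl/fl iMEF values lay under the 40th percentile on all 5 arrays, so that it entered the test through the other lines and the size of its difference is not given.

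At the posterior end of the same cluster the direction turned. Hoxc12, one of the last genes of the cluster to be switched on in the tail region, read 8.47, 8.50, 9.32, 9.15 and 8.27 in Ubffl/fl iMEFs and 7.85, 7.58, 8.39, 8.39 and 7.88 in Ubfwt/wt iMEFs. It was 1.65-fold higher in Ubffl/fl, by 0.72 ± 0.10 (SE, adjusted p = 0.000591), and higher at each time. The ranges overlapped, and both lines were highest at 48 and 72 h. Hoxc13, which regulates hair and nail keratins, was higher by 0.63 ± 0.12 (SE, adjusted p = 0.00554). Its range was 6.99 to 7.65 in Ubffl/fl and 6.45 to 7.01 in Ubfwt/wt. Hoxc11, next to Hoxc12, differed by -0.01 ± 0.10 (SE).

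All 9 HoxB members had a difference below 0 in the iMEFs, and 6 passed the test as lower in Ubffl/fl. Beside Hoxb9 these were Hoxb5 (-0.67), Hoxb6 (-0.64), Hoxb4 (-0.52), Hoxb2 (-0.49) and Hoxb7 (-0.44). Hoxb6, a central gene of the trunk mesoderm, read 6.53, 6.26, 6.74, 6.78 and 7.03 in Ubffl/fl and 7.44, 7.07, 7.24, 7.40 and 7.38 in Ubfwt/wt iMEFs, with no overlap (adjusted p = 0.00134). Hoxb5, a central gene known from the shoulder level and the gut nerves, read 6.66, 6.30, 6.54, 6.74 and 6.79 in Ubffl/fl and 7.15, 7.23, 7.14, 7.35 and 7.51 in Ubfwt/wt iMEFs, also with no overlap (adjusted p = 0.0016). Hoxb1, Hoxb3 and Hoxb13 had differences of -0.18, -0.18 and -0.23 and did not pass the test.

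The HoxA members that passed the test split by position. The anterior members Hoxa2 and Hoxa3 were lower (-0.67 and -0.35), and the posterior members Hoxa10 and Hoxa13 were higher (0.45 and 0.64). None of Hoxa2, Hoxa3, Hoxa10 and Hoxa13 passed under all other settings tried. The 6 remaining members of the cluster did not pass the test. Hoxa2, the gene that gives the second pharyngeal arch its identity, read 6.66, 6.31, 6.30, 6.50 and 5.92 in Ubffl/fl and 7.17, 7.29, 7.01, 6.98 and 6.59 in Ubfwt/wt iMEFs (adjusted p = 0.00249). The single overlap of Hoxa2 was the Ubfwt/wt array at 96 h, which fell below the Ubffl/fl array at 0 h. Hoxa13, needed for the digits and the genital tract, read 9.12, 9.08, 8.80, 8.31 and 8.15 in Ubffl/fl and 8.08, 7.99, 8.44, 7.87 and 7.86 in Ubfwt/wt iMEFs (adjusted p = 0.0374). Its difference was widest at 0 and 24 h. Hoxa10, a gene of the lumbar region and uterus, read 9.76, 9.52, 9.58, 9.20 and 8.69 in Ubffl/fl and 9.16, 8.82, 8.99, 8.86 and 8.66 in Ubfwt/wt (adjusted p = 0.0134). The lines were closest at 96 h.

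Because Hoxa2 and Hoxa13 stand near the anterior and at the posterior end of one cluster and differed in opposite directions, the 250 bases before each start are shown, from RefSeq on GRCm38.p6, 5′ to 3′ on the minus strand that both genes use. Capitals mark the letters TGATNNAT, the pattern bound by pairs of PBX and HOX proteins, found on either strand. ATCAATCA is such a match read on the other strand. The other pattern searched was TATAAA on either strand, which neither sequence holds. The region of Hoxa2 is chr6:52164832-52165081 and that of Hoxa13 is chr6:52260881-52261130.
Hoxa2: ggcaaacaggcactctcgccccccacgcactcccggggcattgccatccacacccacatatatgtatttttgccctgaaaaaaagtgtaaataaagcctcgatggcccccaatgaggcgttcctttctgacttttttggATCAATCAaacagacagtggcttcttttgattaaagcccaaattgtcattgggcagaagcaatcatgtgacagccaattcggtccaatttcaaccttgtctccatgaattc
Hoxa13: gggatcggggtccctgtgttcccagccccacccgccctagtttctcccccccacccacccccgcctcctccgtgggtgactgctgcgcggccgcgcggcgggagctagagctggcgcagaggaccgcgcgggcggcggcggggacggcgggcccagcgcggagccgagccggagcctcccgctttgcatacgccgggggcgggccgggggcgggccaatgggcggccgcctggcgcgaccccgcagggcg
The Hoxa2 sequence held 1 TGATNNAT match, which 7.68% of 32851 mouse promoters of that length held, and the Hoxa13 sequence held 0. The promoters of Hoxd8 and Hoxd12, also searched and not shown, held 0 as well. TATAAA was present in 12.4% of the promoters. The Hoxa13 sequence contained 35 CG dinucleotides and the Hoxa2 sequence 6, where the median promoter had 6. A match is a description of the letters only. Promoters were listed for 22 of the Hox coding genes, and not for Hoxb9 or for Hoxc5 to Hoxc13.

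In the HoxD cluster 1 of 9 coding members differed between the iMEF lines. Hoxd8 read 7.36, 7.33, 7.22, 6.71 and 6.69 in Ubffl/fl and 6.77, 6.44, 6.73, 6.41 and 6.37 in Ubfwt/wt, a difference of 0.52 ± 0.12 (SE, adjusted p = 0.0203). The Ubffl/fl values at 72 and 96 h fell within the Ubfwt/wt range. Hoxd10 to Hoxd13, the genes that pattern the forearm and digits, had differences between 0.14 and 0.36 and did not pass the test.

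**Figure D1:**
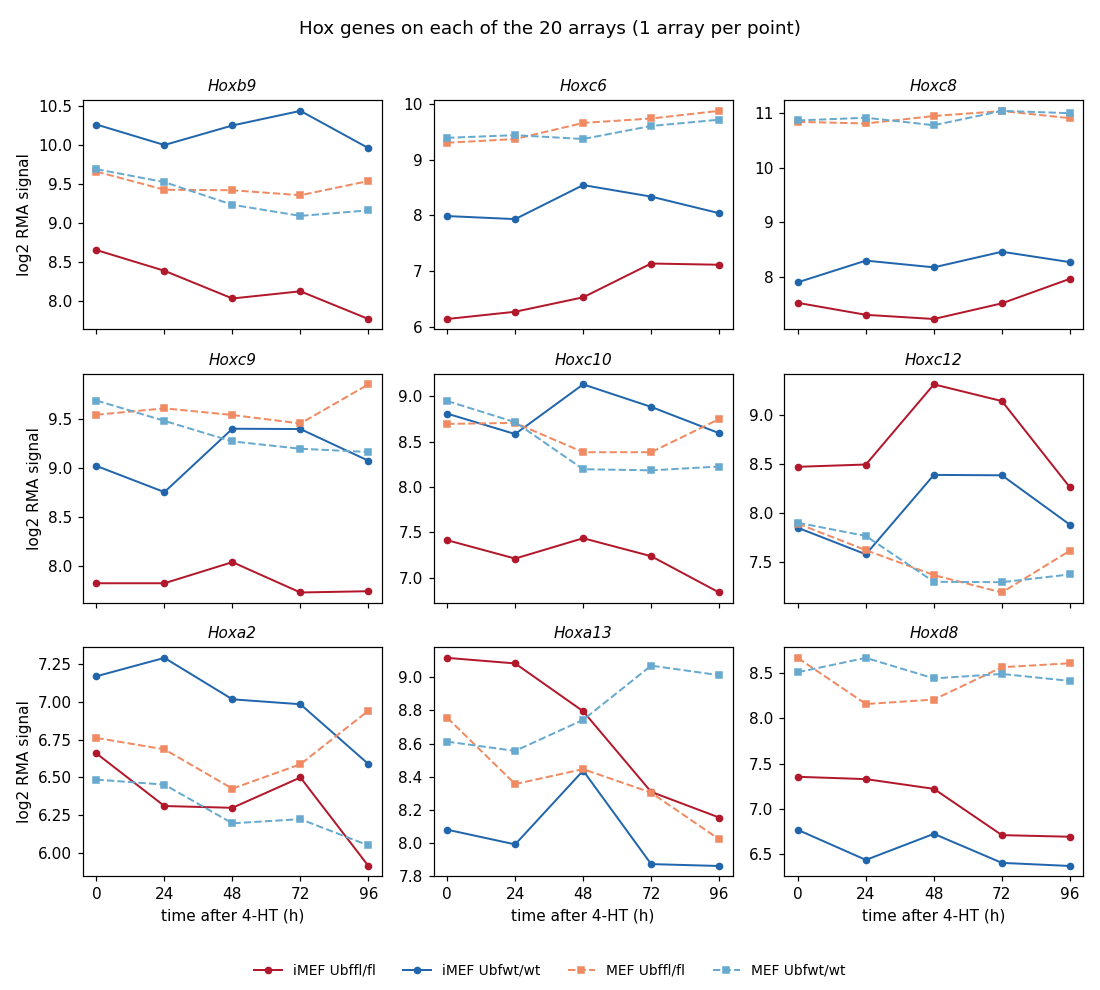
Log2 RMA signal (vertical) against hours after 4-HT (horizontal) for 9 Hox genes, 1 point per array, with iMEF lines as solid circles and MEF lines as dashed squares. Hoxb9, Hoxc6, Hoxc9 and Hoxc10 of the Ubffl/fl iMEFs lay below the Ubfwt/wt iMEFs at all 5 times from 0 h on, while for these 4 genes the MEF lines overlapped.

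By paralog position, 3 of 7 anterior members were lower and 0 higher in the Ubffl/fl iMEFs, where 3.66% and 2.59% of all genes were. Among 14 central members 8 were lower and 1 higher. Among 16 posterior members 3 were lower and 4 higher. By cluster the counts were 2 higher and 2 lower of 10 in HoxA, 0 and 6 of 9 in HoxB, 2 and 6 of 9 in HoxC, and 1 and 0 of 9 in HoxD. The medians of the log2 differences were -0.13, -0.49, -0.60 and 0.14 for HoxA to HoxD, against -0.03 over all genes tested. The signs of these cluster medians were the same after centring each array on its median and after quantile normalization.

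The differences between the iMEF lines were already present at 0 h. At 0 h Hoxb9 stood at 8.66 against 10.27, Hoxc10 at 7.41 against 8.81 and Hoxc6 at 6.14 against 7.99. The 6.14 of Hoxc6 lay under the 40th percentile of that array, 6.27. All 19 members that passed the test had at 0 h the sign of their mean difference, as did 36 of all 38 members. The 0 h arrays are part of that mean, so this agreement is not separate support. The 2 iMEF lines also differed in fibroblast markers, of which 2 of 15 were higher (Pdgfra, 1.46, and Postn, 0.74) and 2 lower (Thy1, -1.08, and Twist1, -0.31) in Ubffl/fl. None of the 10 macrophage markers passed that test in limma (0 had an unadjusted p under 0.05), with differences between -0.36 and 0.21. The part of the fibroblast markers in the Hox result was not tested. The count of 19 fell to 11, 11, 11 and 10 when the arrays at 0, 24, 48 or 72 h were left out, and to 8 with the 48, 72 and 96 h arrays alone. Leaving out single arrays gave 11 to 19, with 11 without either iMEF array at 0 h. Hoxb5, Hoxb9, Hoxc6, Hoxc8, Hoxc9, Hoxc10 and Hoxc13, 7 of the 19, passed under all 16 other settings tried.

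None of the 38 members passed the test between Ubffl/fl and Ubfwt/wt MEFs in limma (2.47% of all genes did), 7 had an unadjusted p under 0.05, and the differences ran from -0.59 to 0.40. Hoxa2 was nearest to the threshold, at 0.40 ± 0.11 (SE, adjusted p = 0.0979). It read 6.76, 6.69, 6.43, 6.59 and 6.94 in Ubffl/fl and 6.49, 6.45, 6.20, 6.23 and 6.05 in Ubfwt/wt MEFs, an overlap of 1 Ubffl/fl array with the Ubfwt/wt range. Hoxd13, the most posterior HoxD gene and a digit gene, read 9.70, 9.21, 9.33, 8.88 and 8.51 in Ubffl/fl and 9.57, 9.58, 9.75, 9.72 and 9.95 in Ubfwt/wt MEFs, -0.59 ± 0.17 (SE, adjusted p = 0.133). The MEF lines started together at 0 h for Hoxd13 and stood furthest apart at 96 h. Hoxb3, an anterior gene of the hindbrain and pharynx, read 8.69, 8.77, 8.54, 8.70 and 8.80 in Ubffl/fl and 8.35, 8.25, 8.33, 8.45 and 8.25 in Ubfwt/wt, 0.37 ± 0.12 (SE, adjusted p = 0.194), and was the 1 member whose MEF groups did not overlap, with Ubffl/fl higher (1.53% of all genes). The values of Hoxd11, a forearm gene, were 8.85, 8.82, 8.60, 8.33 and 8.32 in Ubffl/fl and 8.98, 8.81, 8.75, 8.83 and 8.79 in Ubfwt/wt MEFs, -0.25 ± 0.09 (SE, adjusted p = 0.285). Its Ubffl/fl values were the lower ones at 4 of the 5 times, furthest so at 72 and 96 h. Hoxc5 in the MEFs read 8.87, 8.79, 8.44, 8.44 and 9.03 in Ubffl/fl and 9.33, 9.49, 8.69, 8.87 and 9.07 in Ubfwt/wt, -0.37 ± 0.14 (SE, adjusted p = 0.285). Hoxa13 read 8.76, 8.36, 8.45, 8.30 and 8.02 in Ubffl/fl and 8.61, 8.56, 8.74, 9.07 and 9.01 in Ubfwt/wt MEFs, -0.42 ± 0.17 (SE, adjusted p = 0.347), and like Hoxd13 stood furthest apart at 96 h. Of the macrophage markers, 4 of 10 were higher in the Ubffl/fl MEFs, with a median difference of 0.68 over the 10, and their part in the MEF values was not tested. Quantile normalization brought Hoxa2 past the threshold, and the 48, 72 and 96 h arrays alone brought Hoxd13 past it.

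**Figure D2:**
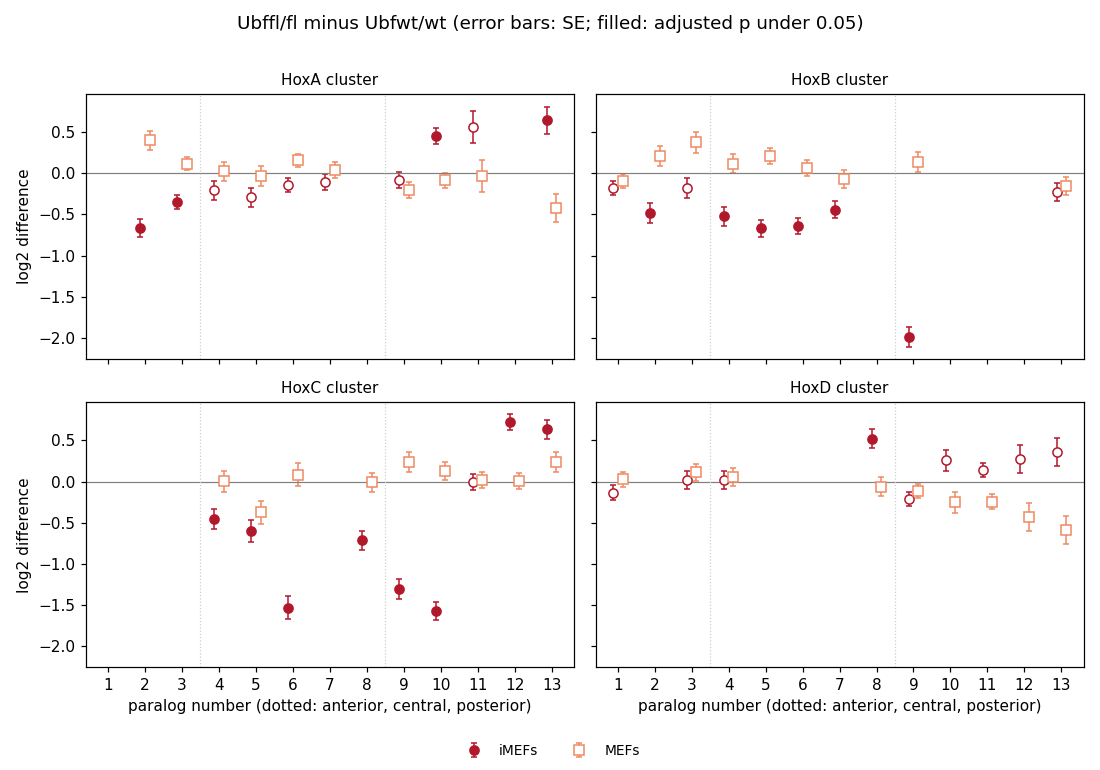
Log2 difference of Ubffl/fl minus Ubfwt/wt (vertical, with SE) by paralog number (horizontal) in each cluster, in iMEFs (circles) and MEFs (squares); filled symbols passed an adjusted p of 0.05. In iMEFs Hoxb9, Hoxc6, Hoxc9 and Hoxc10 lie below -1 and Hoxc12, Hoxc13, Hoxa10, Hoxa13 and Hoxd8 above 0, while all MEF symbols are open.

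The genotype difference itself was then compared between the cell types. In this interaction test 13 of the 38 members passed (4.04% of all genes), 10 of them more negative (2.58%) and 3 more positive (1.46%) in the iMEFs than in the MEFs. The genes with an interaction of 1 or more in size were Hoxb9 (-2.13 ± 0.17, adjusted p = 2.8e-05), Hoxc10 (-1.70 ± 0.15, adjusted p = 6.15e-05), Hoxc6 (-1.62 ± 0.20, adjusted p = 0.000517), Hoxc9 (-1.55 ± 0.17, adjusted p = 0.000248), Hoxa2 (-1.07 ± 0.15, adjusted p = 0.00173) and Hoxa13 (1.06 ± 0.23, adjusted p = 0.0224). These 6 of 38 stand beside 1.67% of all genes. Hoxa2 and Hoxa13 had differences of opposite sign in the 2 cell types, Hoxa2 -0.67 and 0.40 and Hoxa13 0.64 and -0.42 in iMEFs and MEFs. Hoxa2 was near the floor where it was low, over the 40th percentile on 4 of 5 Ubffl/fl iMEF and 3 of 5 Ubfwt/wt MEF arrays. Hoxc6 was over it on 4 of 5 Ubffl/fl iMEF arrays. By cluster 4 of 10 HoxA, 4 of 9 HoxB, 5 of 9 HoxC and 0 of 9 HoxD members passed. Hoxd13 (0.95 ± 0.25, adjusted p = 0.0522) and Hoxb4 (-0.64 ± 0.17, adjusted p = 0.0548) came close. After median centring the split was 4 more positive and 8 more negative. Of the macrophage markers, 4 of 10 were also more negative in this test, and their part in the Hox result was not tested. The count of 13 fell to 8, 6, 6 and 6 without the arrays at 0, 24, 48 or 72 h, and to 8 without either MEF array at 72 h. Hoxb9, Hoxc6 and Hoxc10 passed under all 15 other settings tried.

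Primary and immortalized cells were then compared within a genotype, which asks how the Hox pattern of an immortalized line stands to that of primary cells. In Ubffl/fl, 29 of 38 members differed, 13 higher and 16 lower in the iMEFs, where 72.1% of all genes differed (37.8% higher and 34.2% lower). In Ubfwt/wt, 25 members differed, 17 higher and 8 lower, where 77.1% of all genes did (43.1% higher and 34% lower). The 5 iMEF and 5 MEF arrays did not overlap for 20 and 16 members in Ubffl/fl and Ubfwt/wt (39.5% and 55.5% of all genes). Non-overlap was thus more frequent among the members than among all genes in Ubffl/fl and less frequent in Ubfwt/wt, a description with no test. Hoxc4, among the 16 lower and the 20 without overlap in Ubffl/fl, lay under the 40th percentile on all 5 Ubffl/fl iMEF arrays. It entered the test through the other lines, where it is higher. There were 9 and 4 members that differed by 1 or more in log2 in Ubffl/fl and Ubfwt/wt (19.3% and 20% of all genes). The 4 of Ubfwt/wt were Hoxc5, Hoxc6, Hoxc8 and Hoxd8, which were among the 9 of Ubffl/fl and were lower in the iMEFs of both genotypes. Cell type cannot be told apart from immortalization, passage and line, and the macrophage markers were lower in the iMEFs for 10 of 10 in both genotypes and the fibroblast markers for 13 of 15. Their part in the Hox differences was not tested. Of these markers, Adgre1, Lyz2, Ptprc, Mrc1 and Lum lay under the 40th percentile on every iMEF array and entered the test through the MEFs. In these bulk samples fewer cells of a type and less RNA per cell cannot be told apart.

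Hoxc8 showed the widest gap between the cell types in both genotypes. With the array values given above, it was 10.7-fold lower in Ubffl/fl iMEFs than in Ubffl/fl MEFs, -3.41 ± 0.11 (SE, adjusted p = 2.19e-10), and 6.54-fold lower in the Ubfwt/wt pair, -2.71 ± 0.11 (SE, adjusted p = 2.29e-09). The highest iMEF array stood at 8.46 and the lowest MEF array at 10.78. Hoxc6 was 7.75-fold lower in Ubffl/fl, -2.95 ± 0.14 (SE, adjusted p = 3.86e-09), and 2.53-fold lower in Ubfwt/wt, -1.34 ± 0.14 (SE, adjusted p = 4.63e-06). Hoxc5, a central gene of the neck and upper trunk, read 6.36, 6.32, 6.61, 6.66 and 6.53 in the Ubffl/fl iMEFs against 8.44 to 9.03 in the Ubffl/fl MEFs. Its difference was -2.22 ± 0.14 (SE, adjusted p = 4.02e-08) in Ubffl/fl and -1.99 ± 0.14 (SE, adjusted p = 1.53e-07) in Ubfwt/wt. In the Ubffl/fl iMEFs Hoxc5 and the lowest values of Hoxc6 stood near the floor. Hoxd8 in the MEFs stood at 8.66, 8.16, 8.21, 8.56 and 8.61 in Ubffl/fl and 8.51, 8.67, 8.44, 8.49 and 8.41 in Ubfwt/wt. Its difference was -1.38 ± 0.12 (SE, adjusted p = 7.72e-07) in Ubffl/fl and -1.96 ± 0.12 (SE, adjusted p = 4.91e-08) in Ubfwt/wt, with no overlap in either genotype. Hoxd4, a gene of the hindbrain and neck, had differences of -0.45 and -0.41. In the iMEFs Hoxd4 exceeded the 40th percentile on only 3 of 5 Ubffl/fl and 2 of 5 Ubfwt/wt arrays. These 5, Hoxc5, Hoxc6, Hoxc8, Hoxd4 and Hoxd8, were the members lower in both genotypes, 5 of 38 where 30.3% of all genes were.

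Members higher in the iMEFs of both genotypes were Hoxa4, Hoxa9, Hoxb1, Hoxb13, Hoxc11, Hoxc12, Hoxd1, Hoxd9, Hoxd11 and Hoxd12, 10 of 38 where 34% of all genes were. Of these 10, 7 were posterior. Hoxd1 lay under the 40th percentile on all 5 arrays of both MEF lines and entered the test through the iMEFs, where it is high. Hoxc11, a hindlimb gene, read 7.08, 7.24, 7.30, 7.06 and 6.92 in Ubffl/fl iMEFs and 6.58, 6.43, 6.04, 6.09 and 6.32 in Ubffl/fl MEFs. In Ubfwt/wt it read 7.23, 7.09, 7.01, 7.31 and 7.01 in iMEFs and 6.72, 6.41, 6.18, 5.90 and 6.16 in MEFs. Its groups did not overlap in either genotype, and the differences were 0.83 ± 0.10 (SE, adjusted p = 1.06e-05) and 0.85 ± 0.10 (SE, adjusted p = 8.3e-06). In each MEF line Hoxc11 exceeded the 40th percentile on only 3 of 5 arrays. Hoxd12, a digit gene, was higher by 1.39 and 0.69, Hoxd11 by 0.79 and 0.40, and Hoxa9, which also acts in blood progenitors, by 0.67 and 0.55. Hoxc12 in the MEFs read 7.89, 7.62, 7.37, 7.19 and 7.62 in Ubffl/fl and 7.90, 7.77, 7.30, 7.30 and 7.38 in Ubfwt/wt. It was higher in the iMEFs by 1.20 ± 0.10 (SE, adjusted p = 4.4e-07) and 0.49 ± 0.10 (SE, adjusted p = 0.0006), but with the 0 and 24 h arrays alone the Ubfwt/wt difference was -0.12.

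The cell type difference ran in opposite directions in the 2 genotypes for Hoxa2, Hoxb9 and Hoxc10, 3 of 38 where 0.537% of all genes did so. Hoxb9 was 2.44-fold lower in the iMEFs in Ubffl/fl, -1.29 ± 0.12 (SE, adjusted p = 1.86e-06), and 1.79-fold higher in Ubfwt/wt, 0.84 ± 0.12 (SE, adjusted p = 5.61e-05). Hoxa2 was -0.34 ± 0.11 and 0.73 ± 0.11 (SE), and Hoxc10 -1.36 ± 0.11 and 0.35 ± 0.11 (SE). The Hoxa2 difference in Ubffl/fl did not pass after median centring (-0.22, adjusted p = 0.0875), without the 96 h arrays (-0.17, adjusted p = 0.117) or with the 0 and 24 h arrays alone (-0.24, adjusted p = 0.237). The Hoxc10 difference in Ubfwt/wt was -0.13 with the 0 and 24 h arrays alone. The opposite directions are the same contrast that the interaction tested, read along the other axis of the design. Of the rest, 11 members differed in Ubffl/fl only at the threshold and 7 in Ubfwt/wt only, and whether such a pair differed was tested only by the interaction. In Ubfwt/wt, Hoxb6 read 7.44, 7.07, 7.24, 7.40 and 7.38 in iMEFs against 6.77, 6.53, 6.50, 6.43 and 6.52 in MEFs, 0.76 ± 0.10 (SE, adjusted p = 1.93e-05). In Ubffl/fl, where the Hoxb6 values were 6.58, 6.57, 6.61, 6.57 and 6.71 in the MEFs, the difference was 0.06 ± 0.10 (SE). Hoxb5 in the MEFs was 7.20, 7.17, 7.17, 7.24 and 7.67 in Ubffl/fl and 7.32, 7.12, 6.96, 6.88 and 7.12 in Ubfwt/wt. Its difference in Ubffl/fl was -0.68 ± 0.10 (SE, adjusted p = 8.12e-05), and its Ubfwt/wt difference was 0.19 ± 0.10 (SE). Hoxa7 and Hoxd3 passed in neither genotype.

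By cluster, HoxC had 2 higher and 6 lower of 9 in Ubffl/fl, Hoxc4 among the 6, and 3 and 4 of 9 in Ubfwt/wt. HoxB had 2 higher and 5 lower of 9 in Ubffl/fl, but 5 higher and 0 lower of 9 in Ubfwt/wt. HoxA had 4 higher and 2 lower of 10, and then 5 and 1. HoxD had 5 higher and 2 lower of 9, and then 4 and 3. Of 16 posterior members, 10 and 9 were higher in the iMEFs of Ubffl/fl and Ubfwt/wt. Of all genes, 37.8% and 43.1% were higher and 34.2% and 34% lower, so that 72.1% and 77.1% differed. The counts by cluster and position are a description with no test. Centring each array on its median moved the median difference of all genes in Ubffl/fl from 0.09 to 0.21, and the members then split 16 higher and 12 lower, with HoxA at 6 and 0. In Ubfwt/wt the same step moved it from 0.14 to 0.22 and the split to 19 and 8. No member that had passed changed sign under this centring or under quantile normalization in either genotype. In Ubffl/fl and Ubfwt/wt, 17 and 15 members passed under every other setting in which they were tested. These were 15 settings for most, but 14 for Hoxc4, Hoxc11 and Hoxd4 in Ubffl/fl and for Hoxa2, Hoxa3, Hoxb6 and Hoxc11 in Ubfwt/wt. The Ubffl/fl iMEF values of Hoxc4 lay under the 40th percentile on all 5 arrays, so that it entered through the other lines.

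**Figure D3:**
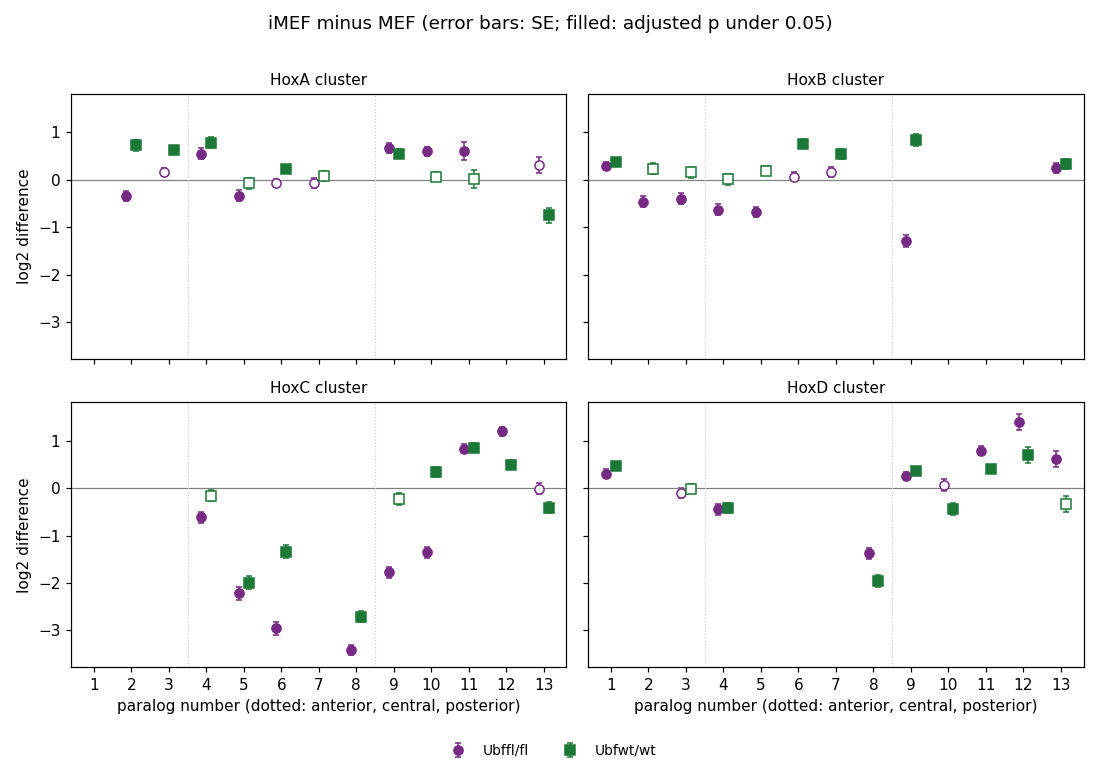
Log2 difference of iMEF minus MEF (vertical, with SE) by paralog number (horizontal) in each cluster, for Ubffl/fl (circles) and Ubfwt/wt (squares); filled symbols passed an adjusted p of 0.05. Hoxc5, Hoxc6, Hoxc8 and Hoxd8 lie below -1 in both genotypes, and Hoxb9 lies at -1.29 in Ubffl/fl and 0.84 in Ubfwt/wt.

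The comparison that UBF loss itself would enter is the late effect, the change from 0 and 24 h to 48, 72 and 96 h in Ubffl/fl minus the same change in Ubfwt/wt. No member passed in limma in the iMEFs (0.223% of all genes, 34 genes, did) or in the MEFs (0 of 15272 genes), and 10 and 6 members had an unadjusted p under 0.05. The median SE of a gene here was 0.21, so that small changes were not detectable with 5 arrays a line. In the iMEFs the lowest values were those of Hoxa11 (-1.04 ± 0.22, adjusted p = 0.0638), Hoxa13 (-0.70 ± 0.21, adjusted p = 0.103), Hoxd12 (-0.68 ± 0.27, adjusted p = 0.183) and Hoxb9 (-0.63 ± 0.14, adjusted p = 0.0683). The highest was that of Hoxc5 (0.67 ± 0.19, adjusted p = 0.0917). In the MEFs Hoxd13 (-0.78 ± 0.27, adjusted p = 0.706) and Hoxa13 (-0.66 ± 0.21, adjusted p = 0.699) were lowest. Without the 96 h arrays Hoxa11 (-0.91, adjusted p = 0.0319) and Hoxb9 (-0.66, adjusted p = 0.0274) passed in the iMEFs.

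The posterior limb genes Hoxa11, Hoxa13, Hoxd12 and Hoxd13 show the course behind these values. They were picked for this after their values were seen, so what follows is a description. Hoxa11, the gene of the forearm and shank, read 9.28, 9.16, 8.75, 8.45 and 7.98 from 0 to 96 h in Ubffl/fl iMEFs and 8.28, 7.77, 8.26, 8.39 and 8.10 in Ubfwt/wt iMEFs. It stood above the control line at 0 h and below it at 96 h. Hoxd12 read 9.51, 9.11, 9.09, 8.61 and 8.03 in Ubffl/fl iMEFs and 8.71, 8.55, 8.51, 8.73 and 8.47 in Ubfwt/wt iMEFs, also above the control line at 0 h and below it at 96 h. Hoxd13 in the iMEFs read 10.04, 9.94, 10.12, 9.59 and 9.01 in Ubffl/fl and 9.40, 9.34, 9.83, 9.42 and 8.90 in Ubfwt/wt. Both iMEF lines were lowest at 96 h for this gene. In the MEFs Hoxa11 read 8.26, 8.31, 8.16, 7.94 and 7.89 in Ubffl/fl and 7.86, 8.09, 8.19, 8.23 and 8.35 in Ubfwt/wt. Hoxd12 in the MEFs read 7.89, 7.68, 7.31, 7.23 and 7.29 in Ubffl/fl and 8.06, 7.80, 8.08, 7.97 and 7.62 in Ubfwt/wt. For Hoxa11 and Hoxa13 the Ubffl/fl MEFs were lower and the Ubfwt/wt MEFs higher at 96 h than at 0 h. Of the 16 posterior members, 11 had a late effect below 0 in the iMEFs and 8 in the MEFs, beside 53.6% and 40.8% of all genes. Of the 14 central members, 3 and 2 did.

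**Figure D4:**
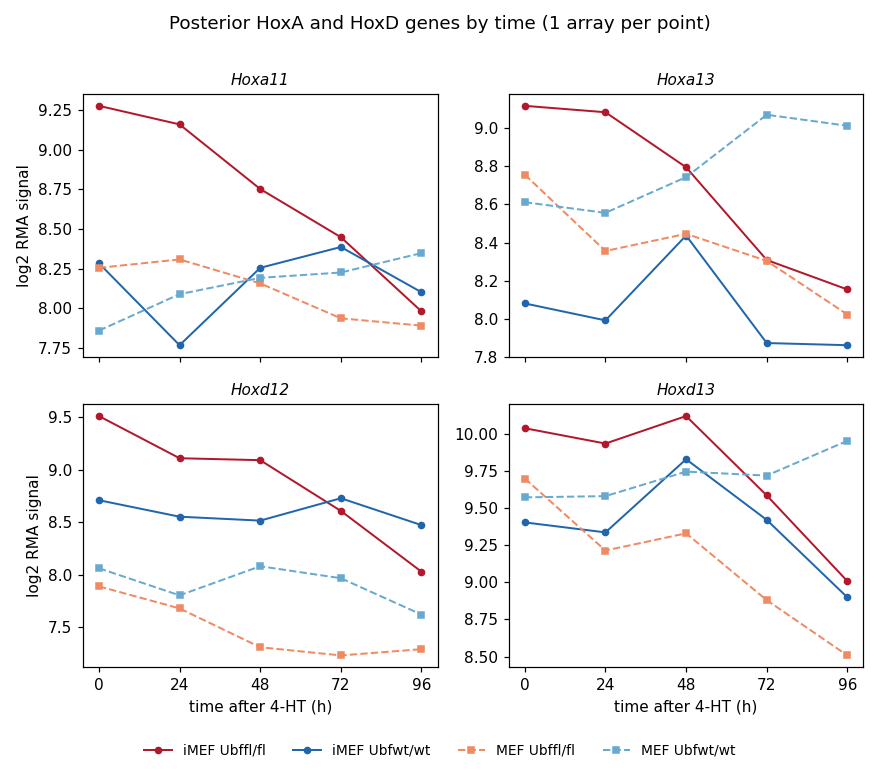
Log2 RMA signal (vertical) against hours after 4-HT (horizontal) for 4 posterior genes, 1 point per array, with iMEF lines as solid circles and MEF lines as dashed squares. Hoxa11 of the Ubffl/fl iMEFs went from 9.28 to 7.98 and Hoxd12 from 9.51 to 8.03; no late effect passed the test.

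Averaged over both genotypes of a cell type, few members changed with time after 4-HT. Hoxc6 rose in the iMEFs by 0.53 ± 0.12 (SE, adjusted p = 0.0348), 1 of 38 members where 2.17% of all genes changed. In the MEFs Hoxc13 rose by 0.50 ± 0.14 (SE, adjusted p = 0.0203), and Hoxc10 (-0.41 ± 0.13, adjusted p = 0.0405) and Hoxc11 (-0.42 ± 0.11, adjusted p = 0.0147) fell, 3 of 38 where 12.8% of all genes changed. Both counts moved when single times were left out. The iMEF count was 0 without the arrays at 0, 24 or 72 h, 6 without those at 48 h and 2 without those at 96 h, and the MEF count was 0 without 0, 24 or 72 h and 5 without 96 h.

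Genes that work with or on the Hox clusters were read in the same fits. The TALE homeodomain proteins of the Pbx, Meis and Pknox families bind DNA together with Hox proteins. Between the iMEF lines 1 of 8 was lower (Meis3, -0.70) and 1 higher (Pknox1, 0.36), where 6.25% of all genes differed. Between cell types 3 were higher and 4 lower of 8 in Ubffl/fl, and 3 and 3 in Ubfwt/wt, where 72.1% and 77.1% of all genes differed. In Ubffl/fl and Ubfwt/wt, Meis1 (-1.64 ± 0.10, adjusted p = 4.2e-08 and -1.60 ± 0.10, adjusted p = 7.82e-08), Meis2 (-0.96 and -1.27) and Pbx3 (-0.36 and -0.45) were lower in the iMEFs, and Pbx4 was higher (0.94 and 1.11). Meis3 was lower in Ubffl/fl (-0.89 ± 0.15, adjusted p = 0.00022), with a Ubfwt/wt difference of -0.03 ± 0.15. Meis1 read 7.54, 7.76, 7.38, 7.03 and 6.61 in Ubffl/fl iMEFs and 8.99, 8.85, 8.92, 8.97 and 8.78 in Ubffl/fl MEFs, with no overlap.

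Of 27 Polycomb and Trithorax genes measured, 1 differed between the iMEF lines, the Polycomb reader Cbx2 (0.38 ± 0.07, adjusted p = 0.00789). Of all genes, 6.25% did. Between cell types 13 were higher and 7 lower in Ubffl/fl, and 12 and 9 in Ubfwt/wt, shares near the 72.1% and 77.1% of all genes. Phf19 (1.73 and 1.65), a partner of the Polycomb methyltransferase, and the readers Cbx7 (1.68 and 1.76) and Cbx2 (1.56 and 1.01) were higher in the iMEFs. Jarid2 (-1.21 and -1.30), which belongs to the methyltransferase complex PRC2, and Rnf2 (-1.18 and -1.41), the ubiquitin ligase of the other complex, PRC1, were lower. Kdm6a, a demethylase that removes the Polycomb mark, was also lower (-1.18 and -1.39).

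Retinoic acid and Cdx factors switch on Hox genes in the embryo. Of 15 such genes 1 differed between the iMEF lines, where 6.25% of all genes did. This was Crabp1, which binds retinoic acid in the cytoplasm and was higher in Ubffl/fl (1.28 ± 0.16, adjusted p = 0.000296). It was lower in the iMEFs than in the MEFs in both genotypes (-1.15 and -2.38). The retinoic acid receptor Rarg (0.94 and 0.77) was higher, as was the retinol receptor Stra6 (0.37 and 0.71). Cyp26a1, a retinoic acid hydroxylase, passed as higher and Aldh1a2, an enzyme that makes retinoic acid, as lower in the Ubffl/fl iMEFs, but Cyp26a1 lay under the 40th percentile on all MEF arrays and Aldh1a2 on all iMEF arrays, so that each entered the test through the cell type where it is high. In the list, 9 were higher and 3 lower of 15 in Ubffl/fl, and 8 and 1 in Ubfwt/wt, beside 72.1% and 77.1% of all genes.

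Other genes of position also told the iMEF lines apart. Of 20 limb and trunk genes, 3 were higher in the Ubffl/fl iMEFs (2.59% of all genes), Tbx4, a gene of the hindlimb bud (1.09 ± 0.13, adjusted p = 0.000214), Meox2 (0.84) and Isl1 (0.53), and Pax9 of the sclerotome was lower (-0.56, with 3.66% of all genes). Tbx4 read 10.51, 10.71, 10.45, 10.19 and 10.45 in Ubffl/fl and 9.19, 9.22, 9.64, 9.49 and 9.34 in Ubfwt/wt iMEFs. Pitx1, the hindlimb factor upstream of Tbx4, was higher in iMEFs than in MEFs in both genotypes (1.60 and 1.92), and En1 of the ventral limb ectoderm and dermis (-1.52 and -1.75) and Tbx15 (-1.15 and -1.61) were lower. Meox2 was lower as well (-0.88 and -1.26), and Tbx4 was higher in the iMEFs in Ubffl/fl (0.88 ± 0.13, adjusted p = 5.48e-05) and lower in Ubfwt/wt (-0.46 ± 0.13, adjusted p = 0.00501). This list had 7 higher and 6 lower of 20 in Ubffl/fl, and 9 and 5 in Ubfwt/wt, not above the 72.1% and 77.1% of all genes. Of 12 head genes, Otx1 was higher (0.70 ± 0.10, adjusted p = 0.000646) and Dlx2 (-0.83 ± 0.08, adjusted p = 4.6e-05), Foxd1 (-0.60) and Six2 (-0.51) lower in the Ubffl/fl iMEFs. Dlx2 was the 1 gene of all 6 lists that differed between the MEF lines (-0.54 ± 0.08, adjusted p = 0.00213). Otx1 (1.91 and 1.12), Foxd1 (1.38 and 1.87), Dlx2 (1.20 and 1.49) and Six2 (1.18 and 1.36) were higher in the iMEFs of both genotypes, 8 of 12 higher in each and 0 and 1 lower, where 37.8% and 43.1% of all genes were higher.

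The clusters also hold microRNAs, and their mature sequences are shown because the 3 miR-196 loci and the 2 miR-10 loci sit at matching places in different clusters and share seeds, while miR-615 lies inside Hoxc5. Sequences are RNA from RefSeq, 5′ to 3′, on GRCm38.p6, with the seed, bases 2 to 8, in capitals.
miR-196b-5p, chr6:52230129-52230150, minus strand: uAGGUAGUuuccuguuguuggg
miR-196a-5p, chr11:96265187-96265208, plus strand: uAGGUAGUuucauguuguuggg
miR-10a-5p, chr11:96317186-96317208, plus strand: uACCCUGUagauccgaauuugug
miR-10b-5p, chr2:74726074-74726096, plus strand: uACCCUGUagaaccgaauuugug
miR-615-3p, chr15:103014969-103014990, plus strand: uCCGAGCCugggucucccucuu
The miR-196a and miR-196b sequences share the seed and differ at 1 of 22 positions, and miR-10a and miR-10b share the seed and differ at 1 of 23. Mir196a-2, on chromosome 15 between Hoxc9 and Hoxc10, gives the same mature 5p sequence as Mir196a-1. The array labels total RNA, so a probe set for a microRNA gene can read its precursor or host transcript as well.

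Mir196b, between Hoxa9 and Hoxa10, was higher in the iMEFs by 1.09 ± 0.11 (SE, adjusted p = 3.94e-06) in Ubffl/fl and 1.002 ± 0.11 (SE, adjusted p = 8.02e-06) in Ubfwt/wt. It read 7.49, 7.03, 7.48, 7.88 and 7.81 in Ubffl/fl iMEFs and 6.40, 6.42, 6.45, 6.40 and 6.57 in Ubffl/fl MEFs, with no overlap. Mir615 was higher by 0.88 ± 0.14 (SE, adjusted p = 0.000149) and 0.87 ± 0.14 (SE, adjusted p = 0.000149), whereas Hoxc5, in which it lies, was lower (-2.22 and -1.99). Evx2, the homeobox gene next to Hoxd13, was higher by 0.64 and 0.52. Hottip, the transcript from the posterior end of HoxA, was higher by 0.58 in Ubffl/fl, and its Ubfwt/wt difference was 0.13 ± 0.09 (SE). None of the 5 genes of this list that were tested passed the test between the iMEF lines or between the MEF lines in limma, and 1 and 0 had an unadjusted p under 0.05. Mir10a, Mir10b, Mir196a-1 and Mir196a-2 did not pass the filter on low signal.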

How the data were processed

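RNA from 4 lines at 5 times was hybridized to Affymetrix arrays, 20 in all. The deposited log2 values were made by the authors with RMA-sketch in Affymetrix Power Tools 1.14.4. The methods name Mouse Gene 2.0 ST arrays, whereas the annotation used here is that of the Mouse Gene 1.0 ST platform. Their subtraction of control and 0 h values and their detection filter were not applied. Of 35556 probe sets 21789 named 1 gene, 1621 several and 12146 none. Each of the 19938 genes was read from 1 probe set, that of highest mean where there were several, as for 1 Hox member (Hoxd3os1). Genes over the array's 40th percentile on at least 2 arrays were tested (15272). Models were fitted in R 4.3.3 with limma 3.58.1 (lmFit, eBayes) and adjusted by Benjamini-Hochberg over all genes tested, with a threshold of 0.05. Line means were fitted with a time term within each cell type, which left 8 residual degrees of freedom. The late effect had 6 and the time change 12. There were no replicate arrays of a line and time, and p-values measure scatter between times, which may be technical. The median SE was 0.11 for a difference between lines, and the number of arrays limits the precision.

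Values on every array are given for the protein-coding members with the 6 lowest adjusted p in each genotype and cell type difference and in the interaction, and, from each other list, genes past the threshold with large differences. Members and lists were chosen with earlier results of these data known. Scripts were tested on simulated data. Alternatives were another scaling, filter, probe set choice, model or set of times. Promoter and microRNA sequences are RefSeq's on GRCm38.p6. Python 3.11.15 with matplotlib 3.10.9 drew the figures.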

Additional observations from a re-analysis of the deposited data

Results flagged for a closer look

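For 13 Hox genes the difference between Ubffl/fl and Ubfwt/wt was not the same in iMEFs and MEFs by the interaction term of the limma fit. The interaction, on the log2 scale as iMEF difference minus MEF difference, was -2.13 for Hoxb9, -1.70 for Hoxc10, -1.62 for Hoxc6, -1.55 for Hoxc9 and -1.07 for Hoxa2. It was -0.88 for Hoxb5, -0.71 for Hoxc8, -0.70 for Hoxb6, -0.70 for Hoxb2 and -0.47 for Hoxa3. The 3 positive values were 1.06 for Hoxa13, 0.71 for Hoxc12 and 0.54 for Hoxa10. In 7 of the 9 HoxC genes the value was below 0, and in 9 of the 9 HoxB genes, beside 8195 of 15272 genes tested. In each of these 2 clusters 4 of the 9 passed the test as more negative. Each line and time had 1 array, so no array could be tested against others of its group.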

How the results depend on the processing

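The numbers of Hox members past the threshold in both cell type differences stayed within 1.5 times their reported values of 29 and 25 under all 15 alternatives each, at 21 to 29 in Ubffl/fl and 17 to 31 in Ubfwt/wt. The 19 members of the iMEF genotype difference became 11, 11, 11 and 10 without the 0, 24, 48 or 72 h arrays, 8 with the 48, 72 and 96 h arrays only and 12 with the iMEF arrays fitted alone, and ranged from 8 to 22 over all 16. With single arrays left out, an alternative added after seeing the data, they were 11 to 19. The 0 members of the MEF difference became 1 with quantile normalization and 1 with the 48, 72 and 96 h arrays only. The 13 interaction members became 8, 6, 6 and 6 without the 0, 24, 48 or 72 h arrays, 4 with 0 and 24 h only and 7 with 48, 72 and 96 h only, and 8 to 13 with single arrays left out. The late effect in iMEFs went from 0 to 2 members without 96 h, and the time changes from 1 to between 0 and 6 in iMEFs and from 3 to between 0 and 5 in MEFs. Among single members, 2 values turned sign, both in the Ubfwt/wt cell type difference with 0 and 24 h only, Hoxc10 to -0.13 (adjusted p = 0.412) and Hoxc12 to -0.12 (adjusted p = 0.483). Dropping a time leaves fewer arrays and degrees of freedom. The arrays carry no replicate numbers, with 1 array for each line and time, so the 2 genotypes of a cell type were paired only by time. The time term compares the lines at matched times, and without it the iMEF genotype count was 15 and the interaction count 10.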

Other observations

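The probe set that Hoxb8 shares with Hoxb7 entered no count. It read 6.87, 6.93, 7.03, 6.76, 6.52 from 0 to 96 h in the Ubffl/fl iMEFs and 8.19, 8.06, 7.95, 7.68, 7.57 in the Ubfwt/wt iMEFs, with every Ubffl/fl array below every Ubfwt/wt array. In the MEFs it ranged over 7.13 to 7.69 in Ubffl/fl and 7.33 to 7.88 in Ubfwt/wt. The antisense transcript Hoxd3os1 differed by -0.03 ± 0.09 (SE) between the iMEF lines and by -0.33 ± 0.09 (SE, adjusted p = 0.00637) between Ubffl/fl iMEFs and MEFs.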
